A study of Mus musculus with 12 samples.

Results

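The SNAP and NSF genes are the 4 mouse genes Napa, Napb, Napg and Nsf, out of 22667 gene IDs in the deposited tables. The set was chosen by the function of the gene products and because Napb, 1 of its members, was lower in libraries from embryos that lack a functional splicing regulator, so the values of the members between those embryos and their controls are given as a description with no test. All 4 members were found by symbol and all 4 passed the filter on low counts, beside 16111 genes tested in all.

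SNARE proteins on a vesicle and on its target membrane zip together into a tight bundle that drives membrane fusion, and after fusion the bundle has to be taken apart before its proteins can be used again. The soluble NSF attachment proteins (SNAPs) are the adaptors of that step: they coat the SNARE bundle and recruit NSF, a ring-shaped ATPase of the AAA family, which unwinds it with energy from ATP. Napa encodes alpha-SNAP, which is made in most tissues, Napb encodes beta-SNAP, a close relative known for its expression in brain, Napg encodes the more distant gamma-SNAP, and Nsf encodes the ATPase. Neurons depend on this cycle at the synapse, where SNAREs are used again and again for transmitter release.

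Messenger RNA was sequenced from 2 brain regions of mouse embryos at stage E18.5, late in gestation, in 4 groups of 2 libraries: hippocampus of knockout (KO) embryos, hippocampus of control embryos, cortex of KO embryos and cortex of control embryos. The KO lacks exons 7 and 8 of Srrm4 (nSR100), a splicing regulator of neurons; per the labels, stem cells with a conditional EUCOMM allele gave mice kept on a C57Bl/6N background, and both exons were removed by crossing to B6.C-Tg(CMV-cre)1Cgn/J mice, whose Cre runs from a cytomegalovirus promoter and is not restricted to neurons. The control embryos are labelled wild type, and the labels do not say whether they carried the Cre transgene or which libraries came from separate animals, so the spread between 2 libraries may be technical in part. Each library is one table of read counts and of RPKM (reads scaled by gene length and by the library's total), with 58210499 to 140052443 counts in total, and replicate 1 is the deeper library of every group.

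Some facts of the libraries bear on what follows. Srrm4 itself averaged 5.92 ± 0.34 RPKM in hippocampus KO and 26.9 ± 1.29 RPKM in hippocampus control (SD, n = 2 each), and 7.55 ± 0.81 RPKM in cortex KO and 24.7 ± 0.71 RPKM in cortex control, lower in every KO library as the labels state. Hippocampus KO replicate 1 stood apart, with 4.40% of its counts on mitochondrial genes against 3.14% to 3.44% in the other 7 libraries. Several fitted values of Napb and Nsf are given with and without it. Marker values and averaged ratios are given only with it included. The Y-linked genes Ddx3y, Kdm5d, Uty and Eif2s3y summed to 0.14 and 0.11 RPKM in the KO libraries numbered 2, against 47.0 and 45.5 RPKM in the control libraries numbered 2 (hippocampus and cortex), and to 14.9 and 7.34 RPKM in the KO libraries numbered 1, against 11.4 and 10.3 RPKM in the control libraries numbered 1. Sex and genotype cannot be told apart in the libraries numbered 2, so the KO differences are given within each number below. Hippocampal markers (Prox1, Zbtb20, Lef1 and Grik4) summed to 101 to 123 RPKM in the hippocampus libraries and 16.5 to 20.4 RPKM in the cortex libraries, and Mef2c, which is high in neocortex, averaged 18.4 ± 8.0 RPKM in hippocampus KO and 13.6 ± 0.44 RPKM in hippocampus control, against 103 ± 1.5 RPKM in cortex KO and 106 ± 0.22 RPKM in cortex control, so the tissue labels match their markers.

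Napb and Napa are close paralogs, which is why their sequences are set side by side before their values. In GENCODE M21 (GRCm38) the main transcript of Napb, on chromosome 2 and the minus strand, and that of Napa, on chromosome 7 and the plus strand, both have 11 exons, and exons 2 to 10 have the same length in both genes. Over the 688 bases of those 9 exons 78.3% of bases were identical, with the highest share in exon 7 (91.8%) and the lowest in exon 9 (66.7%). Exon 4 is shown because it is the exon that an annotated transcript of Napb, Napb-202, leaves out; that transcript is annotated as a target of nonsense-mediated decay. It is 47 bases long, not a multiple of 3, and the capitals mark the 14 bases at which the paralogs differ.
Napb exon 4: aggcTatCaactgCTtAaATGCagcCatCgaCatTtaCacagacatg
Napa exon 4: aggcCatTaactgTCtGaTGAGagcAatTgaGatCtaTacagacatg
The differences are spread over the exon, and its last bases are the same in both. The longest exact run that the main transcripts share is 26 bases, in exon 2 of each. It is shown because it bounds how far a short read could match both transcripts without a mismatch. It sets no bound for matches that allow mismatches.
Shared run: atgttcaagatggccaagaactggag
No stretch of 50 bases occurs in both transcripts. The sources used here do not give the read length or the counting rule. The deposited values are totals per gene, so the share of Napb RNA that lacks exon 4 was not measured.

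**Figure D1:**
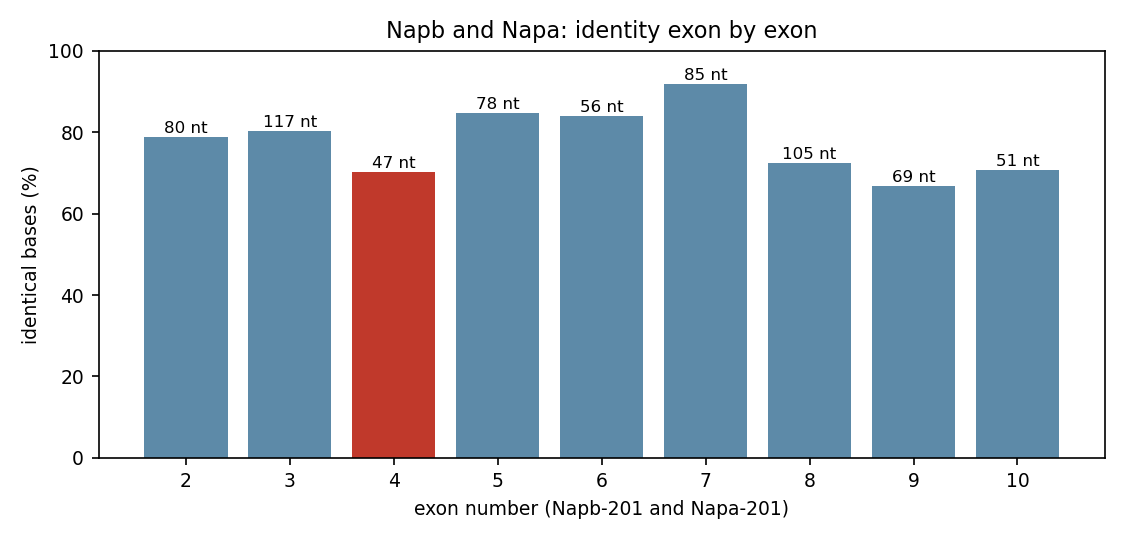
Identity between the main transcripts of Napb and Napa for exons 2 to 10 (x axis), as the percentage of identical bases (y axis), with the exon length in nucleotides above each bar. Exon 4 (red, 47 nucleotides) has 70.2% identical bases, and exon 7 is the most alike at 91.8%.

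The regions just before the gene starts are shown because Napb differed in level between tissues and genotypes in the values below where its paralog Napa did not pass the test between tissues, and because Nsf, like Napb, was lower in hippocampus. Napg was lower in hippocampus too, but its region is not shown and its copies of the motif below were not counted. They are the 250 bases before each gene's start from RefSeq (GRCm38.p6), at chr2:148732421-148732670 on the minus strand for Napb, chr7:16098330-16098579 on the plus strand for Napa and chr11:103954057-103954306 on the minus strand for Nsf. Capitals mark CACGTG, an E-box that reads the same on both strands; it was picked after the sequences had been read.
Napb: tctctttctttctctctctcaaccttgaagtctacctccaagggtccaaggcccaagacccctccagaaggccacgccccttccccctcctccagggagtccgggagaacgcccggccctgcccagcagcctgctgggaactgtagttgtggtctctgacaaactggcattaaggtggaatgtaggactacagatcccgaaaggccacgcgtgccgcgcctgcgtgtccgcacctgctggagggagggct
Napa: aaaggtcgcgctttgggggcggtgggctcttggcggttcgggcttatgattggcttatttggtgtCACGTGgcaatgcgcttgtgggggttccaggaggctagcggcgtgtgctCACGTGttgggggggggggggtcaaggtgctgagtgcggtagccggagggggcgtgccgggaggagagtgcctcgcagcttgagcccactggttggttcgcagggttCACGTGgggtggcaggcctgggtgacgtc
Nsf: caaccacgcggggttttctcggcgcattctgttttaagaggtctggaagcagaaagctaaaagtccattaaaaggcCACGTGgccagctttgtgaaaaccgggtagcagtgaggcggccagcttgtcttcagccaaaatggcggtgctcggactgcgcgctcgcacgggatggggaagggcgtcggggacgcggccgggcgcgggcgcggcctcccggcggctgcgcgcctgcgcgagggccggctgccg
Napa holds 3 copies of CACGTG, starting at -185, -136 and -29 from the gene start, Nsf holds 1, at -174, and Napb holds 0. CACGTG occurs in 6.02% of the 32817 mouse windows of the same length in the table. The GC content was 61.2% for Napb, 65.6% for Napa and 66.0% for Nsf, against a median of 52.4% over all windows. A match of letters is a description and says nothing of binding.

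All 4 members were well expressed in every library, between the 67.9 and the 91.3 percentile of genes with an RPKM above 0. Nsf and Napa were the most abundant per length in all 8 libraries, and Napb and Napg the least. In the 4 cortex libraries Nsf stood above Napa, and in the 4 hippocampus libraries Napa stood above Nsf. Napb exceeded Napg in all 4 control libraries, whereas Napg exceeded Napb in both hippocampus KO libraries and in cortex KO replicate 2. In cortex KO the ranges of Napb (23.4 and 24.2 RPKM) and Napg (21.6 and 23.5 RPKM) overlapped, so these neighbours in the order did not differ beyond their spread there.

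**Figure D2:**
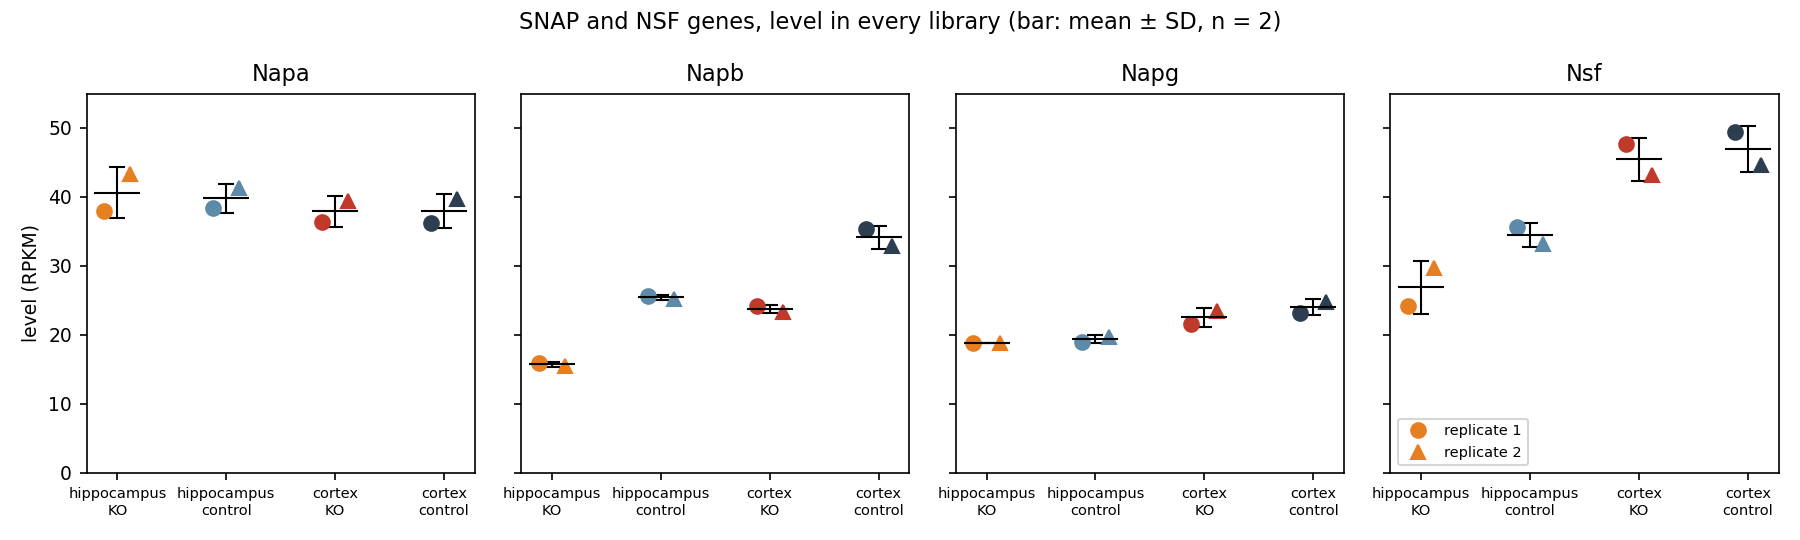
Level of each member in RPKM (y axis) in every library, by group (x axis; circles are replicate 1, triangles replicate 2, bars the mean ± SD of n = 2). Napb sits at 15.5 and 15.99 RPKM in hippocampus KO, below all other libraries, Napa stays between 36.2 and 43.3 RPKM throughout, and Napg and Nsf are lower in hippocampus than in cortex.

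Napb, the brain-enriched adaptor whose level chose the set, was measured at 15.99 and 15.49 RPKM in hippocampus KO, against 25.7 and 25.2 RPKM in hippocampus control (replicates 1 and 2). In cortex it was measured at 24.2 and 23.4 RPKM in KO, against 35.3 and 32.9 RPKM in control. The KO level was 61.9% of the control level in hippocampus and 69.7% in cortex. The fitted log2 fold change (edgeR, KO over control) was -0.72 ± 0.08 (SE) in hippocampus and -0.52 ± 0.07 in cortex. Within the libraries numbered 1 the log2 difference was -0.75 in hippocampus and -0.54 in cortex, and within those numbered 2 it was -0.69 and -0.49. Without hippocampus KO replicate 1 the hippocampus value was -0.74 ± 0.09.

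Napa, the widely expressed adaptor, was measured at 38.0 and 43.3 RPKM in hippocampus KO, against 38.3 and 41.3 RPKM in hippocampus control, and at 36.3 and 39.5 RPKM in cortex KO, against 36.2 and 39.8 RPKM in cortex control. The groups overlapped in both tissues, and in every group replicate 2 was the higher library. The fitted log2 fold change was 0.00 ± 0.09 in each tissue, with a 95% interval of -0.19 to 0.20 in hippocampus and in cortex, so differences beyond about that size lie outside the interval while smaller ones were not resolved. No rise of Napa beside the lower Napb was measured. The summed level of the pair was 54.0 and 58.8 RPKM in hippocampus KO, against 64.0 and 66.4 RPKM in hippocampus control. In cortex it was 60.5 and 62.8 RPKM in KO, against 71.5 and 72.7 RPKM in control.

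Napg, which encodes gamma-SNAP, was measured at 18.8 RPKM in both hippocampus KO libraries, against 18.9 and 19.8 RPKM in hippocampus control. In cortex it was measured at 21.6 and 23.5 RPKM in KO, against 23.2 and 24.8 RPKM in control. The libraries overlapped in cortex and were close to touching in hippocampus, where the higher KO library had 18.83 RPKM and the lower control library 18.93 RPKM. The fitted log2 fold change was -0.07 ± 0.07 in hippocampus and -0.09 ± 0.07 in cortex, each about as large as its SE.

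Nsf, the ATPase, was measured at 24.1 and 29.6 RPKM in hippocampus KO, against 35.7 and 33.2 RPKM in hippocampus control. In cortex it was measured at 47.7 and 43.2 RPKM in KO, against 49.4 and 44.6 RPKM in control, and the groups overlapped. The fitted log2 fold change was -0.39 ± 0.12 in hippocampus and -0.04 ± 0.12 in cortex. The hippocampus value rests largely on the library that stood apart: within the libraries numbered 1 the log2 difference was -0.63 and within those numbered 2 it was -0.16, and without hippocampus KO replicate 1 the fitted value was -0.24 ± 0.12, without hippocampus KO replicate 2 it was -0.56 ± 0.12. Pan-neuronal markers were also lowest in that group, summing to 2364 and 2430 RPKM in hippocampus KO against 2643 and 2542 RPKM in hippocampus control; their part in the Nsf value was not tested. An annotated processed pseudogene, Gm8738, lies within Nsf on the same strand, and whether its reads were counted for Nsf is not stated. In whole tissue, fewer cells of a type and less RNA per cell cannot be told apart.

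Over all genes very few were called between genotypes at an adjusted p under 0.05. In hippocampus 0.0124% of all genes tested were called as lower in KO, and in cortex 0.00621% were. With both tissues in an additive model 0.0248% of all genes tested were called as lower in KO. Since this contrast chose the set, no call on a member between genotypes is reported here. The fitted value of Napb over both tissues, as a description, was -0.62 ± 0.06. For Nsf the fitted value over both tissues was -0.22 ± 0.10, and -0.12 ± 0.08 without hippocampus KO replicate 1, for Napg -0.08 ± 0.04 and for Napa 0.00 ± 0.06.

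The genotype differences were next set against each other between tissues, as a description. The hippocampus difference minus the cortex difference was -0.20 ± 0.11 on the log2 scale for Napb, with a 95% interval of -0.45 to 0.04. For Nsf it was -0.35 ± 0.17, with an interval of -0.75 to 0.06, and -0.20 ± 0.15 without hippocampus KO replicate 1. For Napa it was 0.00 ± 0.12 (interval -0.28 to 0.28) and for Napg 0.02 ± 0.09 (interval -0.20 to 0.23). All 4 intervals contain 0, so the data do not separate the size of the genotype difference between tissues for any member, and do not show it to be equal. Over all genes 0 were called for this difference by edgeR, 158 had an unadjusted p under 0.05, and DESeq2 also called 0.

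Tissue was not used to choose the set, so the members were tested between hippocampus and cortex. Of the 4 members 3 were lower in hippocampus, Napb, Napg and Nsf, in KO and in control embryos alike, whereas Napa did not pass. In control embryos Napb averaged 25.4 ± 0.36 RPKM in hippocampus and 34.1 ± 1.70 RPKM in cortex (SD, n = 2 each), a fitted log2 fold change of -0.50 ± 0.07 (SE; edgeR's quasi-likelihood test, adjusted p = 0.00135). In KO embryos it averaged 15.7 ± 0.35 RPKM in hippocampus and 23.8 ± 0.58 RPKM in cortex, a log2 fold change of -0.70 ± 0.08 (edgeR, adjusted p = 0.000226). The hippocampus libraries lay below the cortex libraries of the same genotype without overlap, while hippocampus control and cortex KO were close to each other.

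Napg averaged 19.3 ± 0.58 RPKM in hippocampus and 24.0 ± 1.13 RPKM in cortex of control embryos, a log2 fold change of -0.39 ± 0.07 (edgeR, adjusted p = 0.00252). In KO embryos it averaged 18.8 ± 0.04 RPKM in hippocampus and 22.6 ± 1.37 RPKM in cortex, a log2 fold change of -0.37 ± 0.07 (edgeR, adjusted p = 0.00293). All 4 hippocampus libraries, at 18.8 to 19.8 RPKM, lay below all 4 cortex libraries, at 21.6 to 24.8 RPKM.

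Nsf had the largest fitted tissue difference of the 4 members in KO embryos, which was not tested against that of Napb. It averaged 26.9 ± 3.90 RPKM in hippocampus and 45.5 ± 3.15 RPKM in cortex of KO embryos, a log2 fold change of -0.87 ± 0.12 (edgeR, adjusted p = 0.001), and -0.72 ± 0.12 without hippocampus KO replicate 1 (edgeR, adjusted p = 0.00668). In control embryos it averaged 34.4 ± 1.75 RPKM in hippocampus and 47.0 ± 3.34 RPKM in cortex, a log2 fold change of -0.52 ± 0.12 (edgeR, adjusted p = 0.0127). That call in control embryos was lost without cortex control replicate 1 (edgeR, adjusted p = 0.0992) and without hippocampus control replicate 2 (edgeR, adjusted p = 0.0831). All 4 hippocampus libraries, at 24.1 to 35.7 RPKM, again lay below all 4 cortex libraries, at 43.2 to 49.4 RPKM.

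Napa averaged 40.6 ± 3.73 RPKM in hippocampus and 37.9 ± 2.23 RPKM in cortex of KO embryos, and 39.8 ± 2.07 RPKM in hippocampus and 38.0 ± 2.52 RPKM in cortex of control embryos. The RPKM means were slightly higher in hippocampus, and the fitted log2 fold change, which scales libraries to each other, was 0.00 ± 0.09 in KO (edgeR, adjusted p = 0.973) and -0.01 ± 0.09 in control (edgeR, adjusted p = 0.973), with intervals from -0.20 to 0.19 in both. Its sign changed with the scaling and with single libraries, so no direction is given.

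Tissue differences were common: in control embryos 14.9% of all genes tested were called as lower in hippocampus, in KO embryos 18.8%, and with both genotypes in an additive model 25.0%, where 29.0% were called as higher. The count of 3 of 4 members is to be read against those shares. With both genotypes together the log2 fold change was -0.69 ± 0.10 for Nsf (edgeR, adjusted p = 0.000316), -0.60 ± 0.06 for Napb (edgeR, adjusted p = 2.66e-05), -0.38 ± 0.04 for Napg (edgeR, adjusted p = 5.58e-05) and 0.00 ± 0.06 for Napa (edgeR, adjusted p = 0.948).

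**Figure D3:**
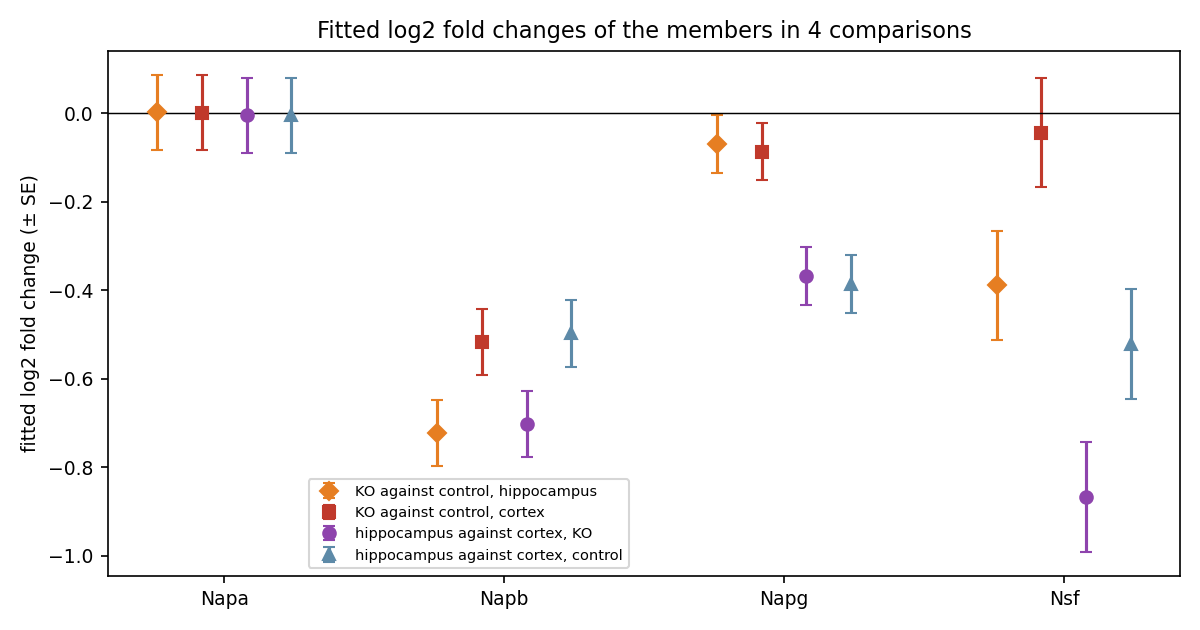
Fitted log2 fold change ± SE (y axis) of each member (x axis) for KO over control in hippocampus and cortex and for hippocampus over cortex in KO and control embryos. Napa lies at 0 in all 4 comparisons, Napb is below 0 in all 4 (-0.50 to -0.72), Napg and Nsf are clearly below 0 in the tissue comparisons, and the KO values are shown as a description because they chose the set.

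The makeup of the adaptor pair was compared next. Napb made up 29.6% and 26.4% of the summed RPKM of Napa and Napb in hippocampus KO, 40.1% and 37.9% in hippocampus control, 40.0% and 37.2% in cortex KO and 49.4% and 45.3% in cortex control (replicates 1 and 2). The share was lower in hippocampus than in the cortex library of the same genotype and number in 4 of 4 cases, though the labels do not say that a shared number marks a pair, by 7.40 to 10.8 percentage points. Over all libraries it averaged 33.5% ± 6.57 in hippocampus and 43.0% ± 5.45 in cortex (SD, n = 4 each), and an exact two-sided permutation test of hippocampus against cortex gave p = 0.143, where 0.0286 is the smallest value it can give. The KO libraries of cortex overlap the control libraries of hippocampus in this measure, so the pooled groups overlap. The test moved libraries across genotypes, so the genotype difference adds to its spread. It does not decide the tissue difference within a genotype. Between genotypes the shares are given as a description only.

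All 3 SNAP genes together stood at 2.32 to 3.02 times the RPKM of Nsf in the 4 hippocampus libraries and at 1.72 to 2.18 times in the 4 cortex libraries. By group the ratio averaged 2.82 ± 0.28 in hippocampus KO, 2.46 ± 0.19 in hippocampus control, 1.86 ± 0.20 in cortex KO and 2.05 ± 0.19 in cortex control (SD, n = 2 each). Over tissues it averaged 2.64 ± 0.29 in hippocampus and 1.96 ± 0.19 in cortex (SD, n = 4 each). The ratio was picked after the levels were known, so although a permutation test between tissues was computed, its p is not given as support. The ratio is one of RNA levels and says nothing of the protein ratio.

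**Figure D4:**
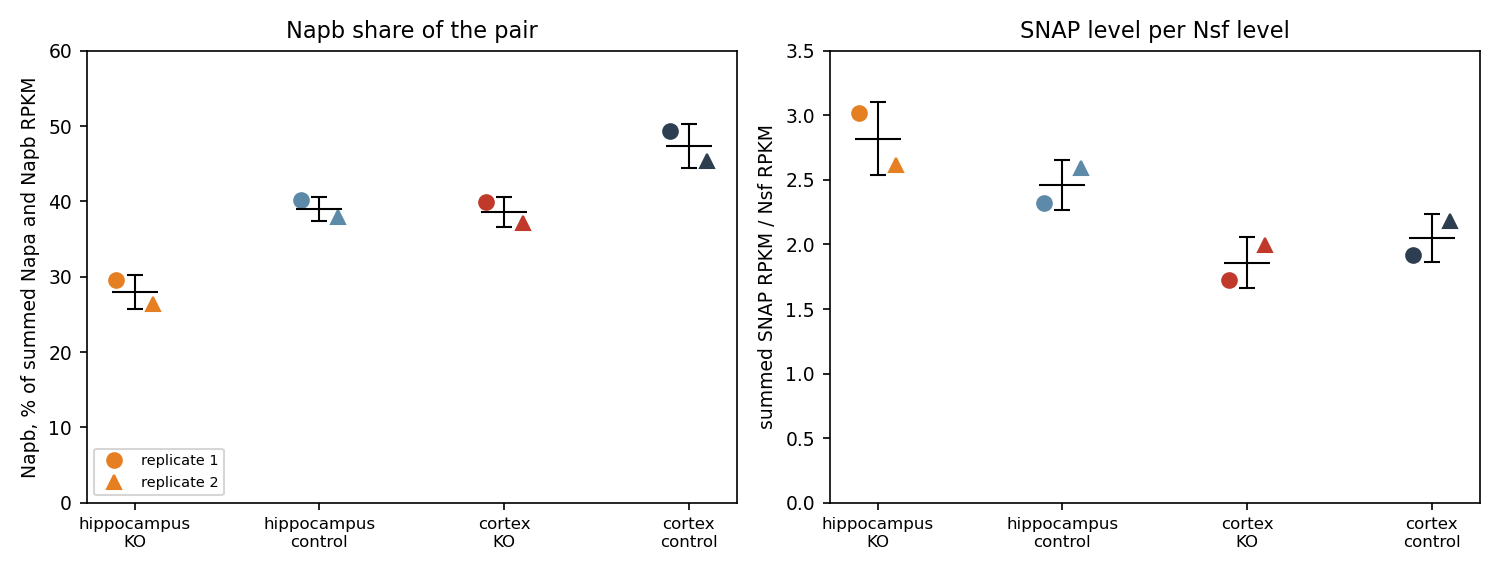
Left, Napb as a percentage of the summed RPKM of Napa and Napb, and right, the summed RPKM of Napa, Napb and Napg divided by that of Nsf (y axes), in every library by group (x axes; circles are replicate 1, triangles replicate 2, bars the mean ± SD of n = 2). The Napb share is 26.4% to 29.6% in hippocampus KO and 45.3% to 49.4% in cortex control, and the ratio to Nsf is at least 2.32 in the hippocampus libraries and at most 2.18 in the cortex libraries.

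The SNAREs that NSF and the SNAPs take apart, and the factors that assemble them, were described next, in 7 lists with 60 genes, of which 59 were tested; Vamp7 was not matched by symbol. Between genotypes 0 of the 59 were called, where 0.0248% of all genes tested were called as lower and 0.0372% as higher in KO over both tissues, and their median log2 fold change was -0.02 against 0.00 over all genes. Between tissues, with both genotypes, 22 of the 59 were called as lower and 14 as higher in hippocampus. Of all genes tested 25.0% were called as lower and 29.0% as higher. The median of the 59 was -0.07 against 0.02 over all genes tested. In the lists below, fell and rose count only called genes and are to be read against those shares.

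Of the 5 neuronal exocytic SNAREs, which act at the synapse, 4 fell and 1 rose in hippocampus, with a median log2 fold change of -0.32. Vamp2, the main SNARE of synaptic vesicles, averaged 138 ± 24.9 RPKM in hippocampus KO, 159 ± 5.9 RPKM in hippocampus control, 206 ± 3.8 RPKM in cortex KO and 203 ± 4.1 RPKM in cortex control, a log2 fold change of -0.56 ± 0.09 between tissues (edgeR, adjusted p = 0.000596). Snap25, its partner on the plasma membrane, changed by -0.32 ± 0.05 (edgeR, adjusted p = 0.000779). The 1 that rose was Vamp1, at 2.8 to 4.8 RPKM a minor member, with 0.50 ± 0.12 (edgeR, adjusted p = 0.0072), named here after its value was seen.

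The other plasma membrane SNAREs went the other way in 4 of 6 cases, with a median of 0.55. Vamp8, known from secretory cells, rose by 1.11 ± 0.10 (edgeR, adjusted p = 1.39e-05), Vamp3, a widely expressed vesicle SNARE, by 0.57 ± 0.06 (edgeR, adjusted p = 4.95e-05) and Stx4a, a plasma membrane syntaxin, by 0.53 ± 0.07 (edgeR, adjusted p = 0.000141). Stx2 did not pass, with 0.07 ± 0.12, and the 1 that fell was Stx3, named after its value was seen.

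SNAREs of internal membranes, which use the same recycling step, showed smaller differences between tissues. Of the 10 endosomal and trans-Golgi SNAREs 2 rose and 4 fell, with a median of -0.09; Stx7 of late endosomes changed by -0.21 ± 0.05, Stx12 by -0.19 ± 0.04 and Stx17, a SNARE of autophagosomes, by 0.26 ± 0.05, all 3 called. Of the 10 ER and Golgi SNAREs 2 rose and 2 fell, with a median of 0.00; Ykt6, a lipid-anchored SNARE, averaged 71.8 ± 0.5 RPKM in hippocampus KO, 78.1 ± 0.4 RPKM in hippocampus control, 86.2 ± 0.9 RPKM in cortex KO and 89.2 ± 0.7 RPKM in cortex control, a change of -0.32 ± 0.04 (edgeR, adjusted p = 0.000236).

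Of the 10 assembly and clamp factors 3 rose and 4 fell, with a median of -0.08. Syt1, the calcium sensor of release, changed by -0.65 ± 0.09 (edgeR, adjusted p = 0.00021), about the size seen for Nsf and Napb. Stxbp5l (tomosyn-2) rose by 1.23 ± 0.16 (edgeR, adjusted p = 0.000177). Of 4 proteins known to bind NSF 3 fell and 0 rose, with a median of -0.22; Gabarapl2 changed by -0.21 ± 0.05 and Gria2, the AMPA receptor subunit, did not pass, with -0.27 ± 0.12. Of 14 other AAA ATPases, taken as relatives of NSF with other tasks, 2 rose and 4 fell, with a median of -0.07; Vcp, the most abundant at 177 to 194 RPKM by group, did not pass, with -0.01 ± 0.07, Spast, which severs microtubules, changed by -0.30 ± 0.05, and Fign by -3.53 ± 0.14 from a low level.

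**Figure D5:**
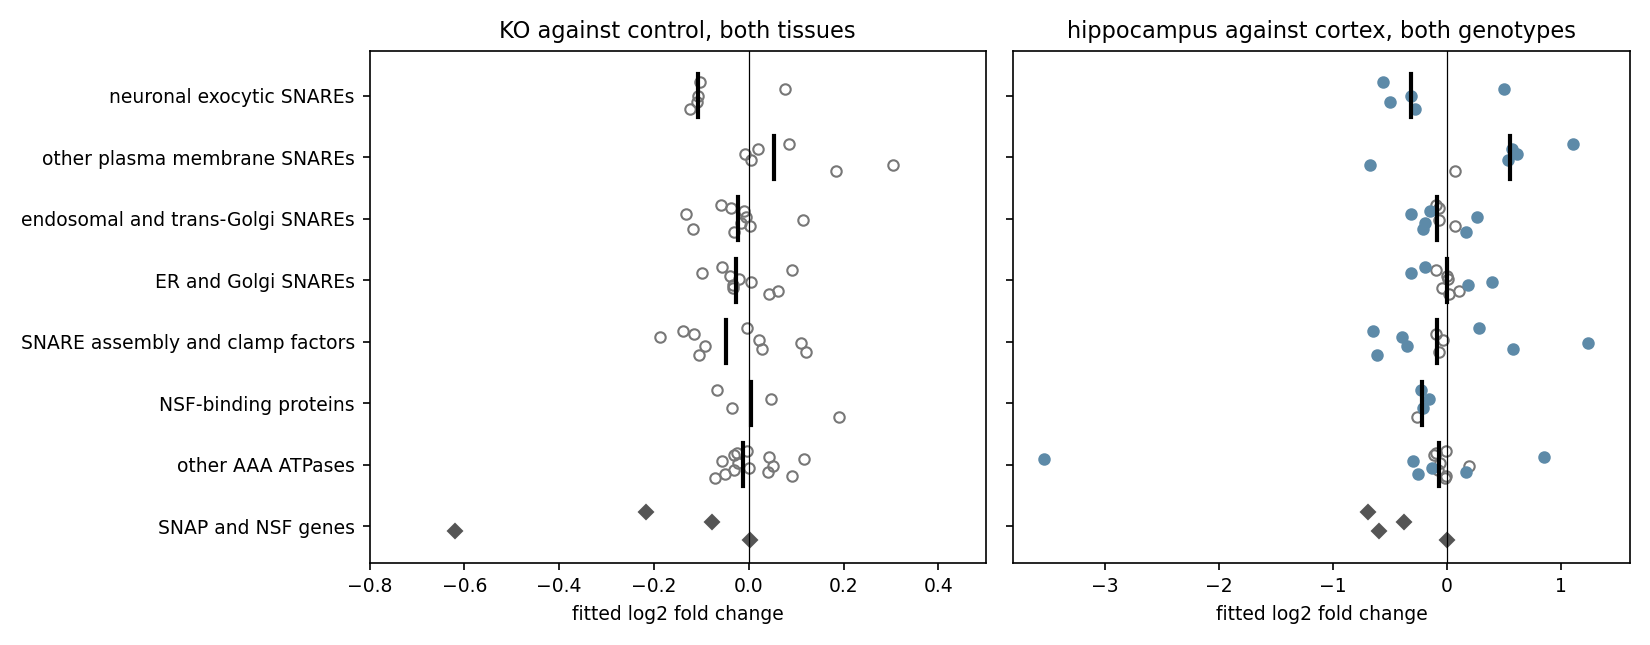
Fitted log2 fold change (x axes) of each gene in 7 SNARE-related lists and of the 4 members (rows), for KO over control over both tissues (left) and hippocampus over cortex over both genotypes (right). Filled blue circles passed an adjusted p of 0.05, open circles did not, grey diamonds are the members (no call shown), and black bars are list medians; 0 list genes pass on the left, and on the right the neuronal exocytic SNAREs centre on -0.32 and the other plasma membrane SNAREs on 0.55.

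Markers of cell types moved with tissue beside these genes. Fell and rose again count only called genes, where 25.0% of all genes tested were called as lower and 29.0% as higher in hippocampus. Of 10 pan-neuronal markers 10 fell and 0 rose in hippocampus, with a median of -0.46 and a summed level of 2364 to 2643 RPKM in hippocampus and 3012 to 3291 RPKM in cortex libraries; among them Tubb3, a neuronal tubulin, changed by -0.43 ± 0.09 and Elavl4, a neuronal RNA-binding protein, by -0.50 ± 0.05. Their median lay between the values of Napg and Napb, and their part in the tissue differences of Napb, Napg and Nsf was not tested. Of 9 GABAergic interneuron markers 9 fell, with a median of -1.36 and sums of 148 to 204 RPKM in hippocampus and 512 to 550 RPKM in cortex libraries. Of 7 glutamatergic neuron markers 1 rose and 5 fell, with a median of -0.22, and of 5 oligodendrocyte lineage markers 4 fell, with a median of -0.83. Radial glia and cycling progenitor markers were called as higher in 8 of 10 cases, and all 10 values were above 0, with a median of 0.63. They summed to 1449 to 1780 RPKM in hippocampus and 997 to 1100 RPKM in cortex libraries. Microglia markers rose in 8 of 8 cases with a median of 0.81, and endothelial and pericyte markers in 5 of 6 with a median of 0.30. Of 4 choroid plexus markers 3 rose, and their sum reached 157 RPKM in hippocampus control replicate 2 against 15.4 to 29.0 RPKM in the other hippocampus libraries and 1.04 to 7.17 RPKM in cortex libraries. Of 6 erythroid markers 0 passed between tissues, and 0 passed between genotypes. They summed to 493 and 297 RPKM in hippocampus KO and to 199 and 281 RPKM in hippocampus control (replicates 1 and 2).

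Between genotypes 0 genes of any marker list were called over both tissues or in either tissue. In hippocampus the pan-neuronal median was -0.12 and that of the GABAergic markers -0.43, against 0.00 over all genes, while in cortex they were -0.02 and 0.08. The erythroid markers had log2 differences above 0 in 6 of 6 genes in each tissue, with medians of 0.75 in hippocampus and 0.43 in cortex, and in cortex they summed to 301 to 357 RPKM in KO and 215 to 283 RPKM in control. The microglia markers had log2 differences above 0 in 8 of 8 genes in hippocampus and 7 of 8 in cortex, with medians of 0.17 and 0.19, and the choroid plexus markers had medians of -0.63 in hippocampus, with values below 0 in 4 of 4 genes, and 0.28 in cortex. The part of these markers in the members' values was not tested. In hippocampus the log2 difference was -0.72 for Napb and -0.39 for Nsf, and -0.74 and -0.24 without hippocampus KO replicate 1. Marker values there, with that library included, ran from -0.38 to -0.03 (pan-neuronal), -0.52 to -0.01 (GABAergic), -1.71 to -0.24 (choroid plexus) and 0.52 to 1.11 (erythroid). In cortex the Napb difference was -0.52. Marker values there ran from -0.05 to 0.02 (pan-neuronal), -0.03 to 0.16 (GABAergic), -0.17 to 0.63 (choroid plexus) and 0.26 to 1.46 (erythroid). Since Napb was chosen for its lower KO level, nothing is read from these ranges.

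The 5 genes whose log2 CPM (counts scaled to the library total) followed each member most closely over the 8 libraries were taken from 12656 others with a mean of at least 1 RPKM, as a description. For Napb they were Cdc42bpa (Pearson r = 0.98), Dnaja2 (0.97), Micu3 (0.97), Ipmk (0.97) and Eif2ak1 (0.96), none of them with a span like that of Napb; Micu3, a mitochondrial calcium regulator, averaged 7.29 RPKM in hippocampus KO, 8.47 RPKM in hippocampus control, 8.44 RPKM in cortex KO and 10.01 RPKM in cortex control. For Nsf they were Cs (0.997), Elfn1 (0.997), Lrrc75b (0.997), Gnai1 (0.996) and Cdk5r2 (0.996), and for Napg Dsel (0.997), Coch (0.996), Kdm1b (0.996), Snx7 (0.995) and D1Ertd622e (0.993), in both cases genes that separate the tissues. For Napa they were Pusl1 (0.97), Fam189b (0.96), Mogs (0.96), Nt5m (0.96) and Rpusd1 (0.95). Among the members Nsf and Napg had r = 0.90, Nsf and Napb 0.85 and Napg and Napb 0.79, while Napa had between -0.04 and 0.14 with the others; the libraries share tissue, genotype and depth, and 8 points in 4 groups carry these values.

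The genes beside Napb in annotation order were looked at for the same genotype difference. Cd93, Nxt1 and Gzf1 on one side had log2 fold changes of -0.09 ± 0.08, 0.06 ± 0.11 and 0.09 ± 0.08 in hippocampus and of 0.03 ± 0.08, 0.08 ± 0.11 and 0.04 ± 0.08 in cortex, each about as large as its SE or smaller. Cstl1 on the other side averaged at most 0.065 RPKM in any group, and Cst11 and 8030411F24Rik averaged 0 RPKM in every group. Cd93, Nxt1 and Gzf1, which lie on the same side of Napb, did not show a difference like that of Napb. The genes on the other side were too low to be compared.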

How the data were processed

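Messenger RNA was measured in 12 samples whose labels reach 8 tables, since a table covers both runs of replicate 1 in every group, and a table counts as 1 library. Reads were aligned with Bowtie to the mouse build mm9, per the submitters' processing notes; the sources used here do not say how reads were counted, by which strand setting or against which gene models. The deposited count column holds whole-number read counts per gene made by the authors, not normalized. The deposited RPKM column, made by the authors from the counts, holds 1114 cells with the text "ne" per table, read as missing. Total counts of 58210499 to 140052443 make a floor of 3 counts equal to 0.0214 to 0.0515 CPM.

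The main test was edgeR 4.0.16 (R 4.3.3; TMM, glmQLFit and glmQLFTest) on the counts of the 16111 genes that passed filterByExpr (minimum count 10, minimum total count 15), with 4 group means, or an additive model for effects over both tissues or both genotypes, and Benjamini-Hochberg adjustment over all genes tested at 0.05, two-sided. The scripts were tested on simulated data. SE is the log2 fold change divided by the square root of F. Alternatives were DESeq2 1.42.0, RLE scaling, other filters, limma 3.58.1 on log2(RPKM + 1) and log2(RPKM + 0.1), a replicate block, only the groups compared, and each library left out.

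The members, the gene lists and the tests were chosen with earlier results of these data known. Genes named are the members, of each list the 3 with the highest mean RPKM and up to 3 called genes by smallest p, shortened in the text, the 5 genes most like each member, the 3 neighbours of Napb on each side and Srrm4. Some list genes that this rule takes are not reported here by name. Symbols were matched for 20759 of 22667 IDs through GENCODE M21 names. Its build, GRCm38, differs from mm9, so coordinates are given only for RefSeq windows.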

Additional observations from a re-analysis of the deposited data

How the results depend on the processing

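No call on Napb or Napg between tissues was lost under any alternative run; for Nsf the call in control embryos was lost without 2 of the 8 libraries, where the log2 fold change over all leave-one-out fits ranged from -0.62 to -0.42. The direction of Napa between tissues is not stable: against fitted values below 0 it was 0.011 in control, 0.018 in KO and 0.015 over both genotypes with genes of at least 1 RPKM in 2 libraries, 0.067, 0.097 and 0.082 with limma on log2(RPKM + 1), and 0.068, 0.099 and 0.084 with limma on log2(RPKM + 0.1), and over the fits without 1 library it ranged from -0.051 to 0.038 in control, -0.11 to 0.096 in KO and -0.050 to 0.036 over both; none passed.

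Between genotypes, leaving out 1 library gave -0.59 to -0.45 for Napb and -0.13 to -0.042 for Napg in cortex, and -0.11 to 0.10 for Napa and -0.56 to -0.24 for Nsf in hippocampus. The difference of these between tissues ranged from -0.11 to 0.10 for Napa, -0.28 to -0.13 for Napb, -0.029 to 0.062 for Napg and -0.51 to -0.20 for Nsf.

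The number of genes called was 11 with DESeq2 against 3 in cortex and 18 with DESeq2 against 4 in hippocampus, where it was 2 with genes of at least 1 RPKM, with limma on log2(RPKM + 0.1) and with only the groups compared; without 1 library it ranged from 2 to 6 there. Over both tissues it was 37 with DESeq2 and 22 with the replicate block, against 10. Between tissues, without 1 library, it ranged from 3231 (without cortex control replicate 1) to 6000 in control, against 5464, and from 4156 (without cortex KO replicate 1) to 6364 in KO, against 6442; with the replicate block it was 7053 in control and 8151 in KO. The labels do not say whether the numbers 1 and 2 mark pairs; deviations of same-numbered libraries from their group means correlated at 0.028 to 0.78 over the 6 pairs of groups. An exact test by sign flips within the 4 pairs of genotype and number gave p = 0.125 for the Napb share, the smallest it can give. Groups of 2 libraries limit every value. Depth goes with replicate number in every group, and its part in the values was not tested.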
